A study of Mus musculus with 22 samples.

Results

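Eph receptors and ephrins were examined in RNA-seq of the E13.5 mouse forebrain with and without *Prdm16*, a zinc-finger transcriptional regulator of radial glia. The genes were chosen by symbol as the Eph receptors and ephrins of the embryonic cortex, which gave 10 of the 24421 genes in the count table. They are the EphA receptors *Epha3*, *Epha4*, *Epha5* and *Epha7*, the EphB receptors *Ephb1* and *Ephb2*, the ephrin-A ligand *Efna5* and the ephrin-B ligands *Efnb1*, *Efnb2* and *Efnb3*.

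Libraries came from 3 homozygous *Prdm16* mutant embryos (KO F727, F728 and F731) and 3 control littermates (control F722, F724 and F725), and are named by the animal number in the count table. Library values below run in that order. The genotype labels describe the controls as either heterozygous or wild type, in which case some may carry 1 mutant allele, whereas the sample titles and the methods of the study call them wild type. The KO embryos carried gene-trap alleles (cGT or cGTreinv) that act as nulls in every tissue, outcrossed to FVB/NJ. The labels name forebrain as the tissue, whereas the methods of the study name cortex.

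Eph receptors are receptor tyrosine kinases, and their ligands, the ephrins, are held on the surface of neighbouring cells, so that signalling needs contact between cells. Ephrin-A ligands are anchored by a lipid and bind mainly EphA receptors, whereas ephrin-B ligands span the membrane and bind mainly EphB receptors and also EphA4. Signals run forward into the receptor-bearing cell and in reverse into the ephrin-bearing cell. In the developing cortex they are known for contact repulsion of growing axons, topographic mapping between thalamus and cortex, positioning of migrating neurons and adhesion among radial glia.

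The genes of a class are alike in sequence, which matters for how reads are told apart. The ephrin-B ligands are closely alike at the end of the coding sequence, which encodes the cytoplasmic tail used in reverse signalling. The last 99 coding bases before the stop codon lie in exon 5 of each gene and are shown here in GRCm38, 5′ to 3′ on the coding strand, with capitals for bases identical in all 3 ligands. *Efnb1* is read from chrX:99147426-99147524 on the plus strand, *Efnb2* from chr8:8620591-8620689 on the minus strand and *Efnb3* from chr11:69555863-69555961 on the minus strand.
Efnb1: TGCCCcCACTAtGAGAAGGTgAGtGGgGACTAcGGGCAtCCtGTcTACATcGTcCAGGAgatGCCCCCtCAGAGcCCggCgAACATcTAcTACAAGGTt
Efnb2: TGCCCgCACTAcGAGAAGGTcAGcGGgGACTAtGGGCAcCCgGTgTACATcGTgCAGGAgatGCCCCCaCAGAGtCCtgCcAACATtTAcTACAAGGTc
Efnb3: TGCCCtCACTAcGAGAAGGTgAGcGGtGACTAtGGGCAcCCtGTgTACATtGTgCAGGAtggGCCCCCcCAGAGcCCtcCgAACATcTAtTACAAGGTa
Of the 99 bases, 77 were identical in all 3 ligands, and pairs of ligands shared 82.8% to 84.8% of them. The differences are spread along the stretch.

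Among the 45 pairs of these genes, the longest identical run between their spliced transcripts, untranslated parts included, had a median of 16 bases and a range of 12 to 35 bases. The longest run lay in the coding sequences of *Epha7* (chr4:28951338-28951372, plus strand, exon 14) and *Ephb1* (chr9:101936109-101936143, minus strand, exon 13). It is printed to show the closest stretch between any of these 45 pairs, in capitals throughout because every base is shared.
Epha7 and Ephb1: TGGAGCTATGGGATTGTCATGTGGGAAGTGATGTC
Against the other Eph and ephrin genes described below, the longest runs were 45 bases between *Ephb1* and *Epha10* and 44 bases between *Ephb1* and *Ephb3*. Neither lay in the coding sequences of both genes. No member shared exon bases with another gene analysed here. The sources used here do not say how reads with several matches were counted, so a small exchange of reads between these genes cannot be measured.

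The libraries held 16638433 to 41140614 counts in KO and 28569526 to 43066648 counts in control. Values in CPM are counts per 1000000 counts of a library over the genes that passed a filter on low counts. They are scaled by the trimmed mean of M-values (TMM). *Prdm16* averaged 7.66 ± 1.68 CPM in KO and 47.0 ± 10.3 CPM in control (SD, n = 3 each). Its log2 fold change was -2.61 with all libraries and -2.54 without KO F731. For all libraries the adjusted *P*-value of *Prdm16* in edgeR was 0.054, and DESeq2 called it. KO F731 stood apart. It was the shallowest library, had reads in 22991 genes against 17795 to 18320 in the other 5, gave 7.39% of its counts to the ribosomal RNA gene *Rn45s* against 0.224% to 2.43%, and summed 3143 CPM over erythroid markers against 941 to 1249 CPM. Microglial markers summed 50.6 CPM in KO F731, against 22.6 to 25.9 CPM in the other 5 libraries. All 8 cortical markers and all 9 markers of the ventral telencephalon passed the filter on low counts (a minimum count of 10), so markers of both regions were present. KO F731 had the lowest sum of both lists, with 1485 CPM over cortical markers against 1762 to 2178 CPM in the other 5 libraries, and 451 CPM over ventral markers against 468 to 841 CPM. The cortical markers had a median log2 fold change of -0.20 with all libraries and -0.081 without KO F731, and their part in the values of the Eph receptors and ephrins was not tested. The fold changes of the 10 genes are therefore also given without KO F731. In bulk tissue, fewer cells that express a gene and less RNA per cell cannot be told apart.

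Whether loss of *Prdm16* altered the RNA of these genes was tested with the quasi-likelihood test of edgeR across 15027 genes, with *P*-values adjusted by the Benjamini-Hochberg method. At an adjusted *P*-value of 0.05, none of the 10 was called, and 0% of all tested genes were. None passed an unadjusted *P*-value of 0.05, where 1.92% of all tested genes did (1.26% higher and 0.665% lower in KO). With DESeq2, 0.16% of genes passed the adjusted threshold, none of them among the 10. The ranges of the 2 groups overlapped for all 10 genes, where every KO library lay below every control for 3.55% of tested genes and above for 3.86%. The values of each gene follow by class, as TMM-scaled CPM, with log2 fold changes of KO over control.

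**Figure D1:**
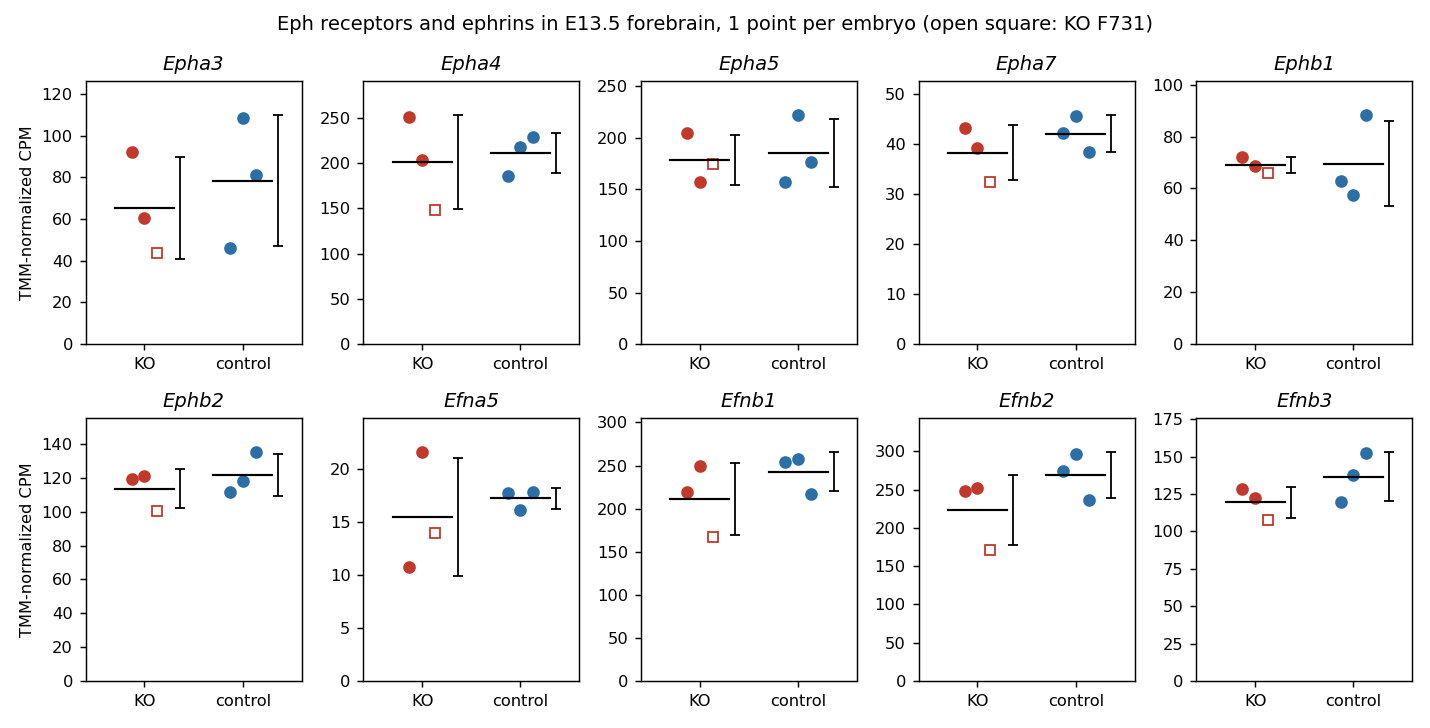
TMM-normalized CPM (vertical axes, each starting at 0) of the 10 genes in KO (red, left) and control (blue, right), with 1 point per embryo, the group mean as a line and the SD as a bar. The open square is KO F731, which was the lowest of the 6 libraries for 7 of the 10 genes, and the groups overlap in every panel.

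*Epha3* (chr16:63543534-63864175, minus strand, GRCm38 as all positions here), a receptor with high affinity for ephrin-A5, varied most between controls. It had 91.9, 60.6 and 43.6 CPM in KO, against 46.0, 108 and 81.0 CPM in control. The lowest KO library lay close to the lowest control, and the highest control was 2.35 times the lowest. The control coefficient of variation, the SD as a percentage of the mean, was 39.8%, larger than that of 96.0% of tested genes. Its log2 fold change was -0.26 with a standard error of 0.35 and a 95% interval of -1.08 to 0.56 (edgeR adjusted *P* = 0.87), and without KO F731 it was -0.044 with an interval of -0.84 to 0.75. Changes of more than 1.5-fold, 0.58 on the log2 scale, lay within the interval for lower values in KO, so that a 1.5-fold loss of *Epha3* could not be told from no change with 3 embryos a group.

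*Epha4* (chr1:77367185-77515088, minus strand) encodes the receptor that binds ligands of both classes and keeps corticospinal axons from crossing the midline again. It had 251, 204 and 149 CPM in KO, against 186, 218 and 229 CPM in control. The KO group held both the highest and the lowest of the 6 libraries. This gave a log2 fold change of -0.067 with a standard error of 0.19 and an interval of -0.51 to 0.38 (edgeR adjusted *P* = 0.92). Without KO F731 the sign turned, to 0.11 with an interval of -0.17 to 0.39.

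*Epha5* (chr5:84054761-84417382, minus strand), a receptor for ephrin-A ligands in forebrain axons, had 205, 157 and 175 CPM in KO and 157, 222 and 177 CPM in control. The lowest values of both groups were nearly equal and the middle values lay close together. The change on the log2 scale was -0.050 with a standard error of 0.16 and an interval of -0.42 to 0.32 (edgeR adjusted *P* = 0.93), and -0.036 without KO F731.

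*Epha7* (chr4:28813131-28967499, plus strand), an ephrin-A receptor of the cortex that is also made as forms without the kinase domain, had 43.2, 39.1 and 32.4 CPM in KO. The controls had 42.1, 45.6 and 38.3 CPM. KO F727 and F728 lay within the control range and KO F731 below it. On the log2 scale KO over control came to -0.13 with a standard error of 0.14 and an interval of -0.45 to 0.18 (edgeR adjusted *P* = 0.86), and -0.032 with an interval of -0.27 to 0.20 without KO F731. Counts per gene do not separate the forms with and without the kinase domain.

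Of the EphB receptors, *Ephb1* (chr9:101922128-102354693, minus strand), which steers retinal axons at the optic chiasm, had the value closest to 0. It had 72.1, 68.7 and 66.1 CPM in KO, against 62.9, 57.6 and 88.2 CPM in control. All KO libraries lay inside the control range. The fitted log2 fold change was -0.011 with a standard error of 0.16 and an interval of -0.39 to 0.37 (edgeR adjusted *P* = 0.99), and 0.020 without KO F731. Control F725, with the highest *Ephb1*, also had the highest sum of ventral telencephalon markers, which was 468, 633 and 451 CPM in KO and 497, 543 and 841 CPM in control. The part of these markers in the *Ephb1* values was not tested, and without control F725 the *Ephb1* log2 fold change was 0.19.

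*Ephb2* (chr4:136647539-136835988, minus strand), a receptor of commissural axons and of excitatory synapses, had 119, 121 and 101 CPM in KO and 112, 118 and 135 CPM in control. KO F731 was lowest and control F725 highest, with the other 4 libraries between 112 and 121 CPM. The log2 fold change was -0.097 with a standard error of 0.12 and an interval of -0.37 to 0.18 (edgeR adjusted *P* = 0.86). Without KO F731 it was -0.017 with an interval of -0.23 to 0.19.

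*Efna5* (chr17:62604184-62881317, minus strand) encodes ephrin-A5, a repellent that sets topographic maps and areal boundaries of thalamocortical axons. It had the fewest counts, 391, 915 and 202 in KO, and 611, 721 and 524 in control. In CPM these were 10.8, 21.6 and 13.9 in KO and 17.7, 16.1 and 17.8 in control. The KO libraries lay on both sides of the controls, with coefficients of variation of 36.1% in KO and 5.64% in control. Counting error alone was 7.04% in the library with the fewest counts, smaller than the spread between KO embryos. Its log2 fold change was -0.15 with a standard error of 0.24 and an interval of -0.71 to 0.41 (edgeR adjusted *P* = 0.87). Without KO F727, which had the lowest value, it was 0.055, and without KO F728, which had the highest, -0.49. Without KO F731 it was -0.086 with an interval of -0.70 to 0.53.

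*Efnb1* (chrX:99136130-99148991, plus strand) encodes ephrin-B1, known for adhesion and maintenance of cortical progenitors. It had 219, 249 and 167 CPM in KO and 254, 258 and 217 CPM in control. KO F727 and control F725 were nearly equal, and KO F731 was the lowest. This gave a log2 fold change of -0.20 with a standard error of 0.16 and an interval of -0.57 to 0.17 (edgeR adjusted *P* = 0.86), and -0.055 with an interval of -0.29 to 0.18 without KO F731.

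*Efnb2* (chr8:8617434-8661242, minus strand) encodes ephrin-B2, made by neural progenitors and by arterial endothelium, and had the lowest log2 fold change of the 10. It had 248, 252 and 171 CPM in KO, against 274, 297 and 237 CPM in control. KO F727 and F728 were above control F725, and KO F731 was below all controls. The change on the log2 scale was -0.27 with a standard error of 0.17 and an interval of -0.66 to 0.13 (edgeR adjusted *P* = 0.86, unadjusted *P* = 0.16). Without KO F731 it was -0.11 with an interval of -0.34 to 0.13. Endothelial markers summed 90.7, 96.1 and 150.4 CPM in KO, against 83.4, 108 and 105 CPM in control, but the high sum of KO F731 came with *Cldn5* (named after its values had been seen), at 65.2 CPM there and 19.6 to 23.2 CPM in the other 5 libraries. The other 6 endothelial markers summed 69.5, 75.0 and 85.2 CPM in KO and 63.8, 84.5 and 82.3 CPM in control. The part of endothelial cells in these values was not tested.

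*Efnb3* (chr11:69554092-69560205, minus strand) encodes ephrin-B3, the midline repellent for axons that carry EphA4. It had 128, 123 and 108 CPM in KO and 119.9, 138 and 153 CPM in control. KO F727 and F728 were above the lowest control. On the log2 scale KO over control came to -0.19 with a standard error of 0.12 and an interval of -0.48 to 0.09 (edgeR adjusted *P* = 0.86, unadjusted *P* = 0.16), and without KO F731 it was the most negative of the 10, at -0.13 with an interval of -0.37 to 0.12.

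Side by side, the 10 log2 fold changes were all below 0, where 50.8% of tested genes were, with a median of -0.14 against -0.004 over all tested genes. Without KO F731, 8 of the 10 were below 0, again with 50.8% of tested genes, and the median was -0.040. KO F731 was the lowest library for 7 of the 10, the exceptions being *Epha5*, *Ephb1* and *Efna5*, where it was lowest for 38.5% of tested genes. Set against the control mean of each gene, the 10 genes had medians of 100.5%, 95.1% and 78.0% in the 3 KO libraries. The 3 controls gave medians of 91.1% to 105%, so that KO F727 and F728 lay within the range of the controls and KO F731 below it. Markers of neurons summed 4356, 3984 and 4324 CPM in KO, against 4393, 4773 and 4675 CPM in control, and markers of radial glia 3039, 3327 and 3297 CPM in KO, against 2878, 2789 and 2767 CPM in control. Neither pair of sums overlapped, but no share of tested genes stands beside such sums, which weigh abundant genes most. *Tubb3* alone averaged 1940 CPM in KO and 2028 CPM in control, and *Vim* 1398 and 1226 CPM. Taken singly, 0 of the 6 neuronal markers had every KO library below every control, where this held for 3.55% of tested genes. Of the 7 radial glia markers, 2 (*Vim* and *Fabp7*) had every KO library above every control, where this held for 3.86%. All 6 neuronal markers had log2 fold changes below 0, and of the 7 radial glia markers 5 were above and 2 below (*Slc1a3* and *Sox2*). None of these markers passed the adjusted threshold in edgeR, and 1 passed an unadjusted *P*-value of 0.05, the radial glia gene *Fabp7*. Without KO F731, 2 radial glia markers passed unadjusted as higher in KO and 1 neuronal marker as lower. In that setting 218 of 15128 tested genes passed as higher and 180 as lower. The part of these markers in the values of the 10 genes was not tested. Interval widths bound the change that could have been missed. The 95% interval lay inside a 1.5-fold change either way for 7 of the 10 genes, where it did for 55.3% of tested genes. The exceptions were *Epha3*, *Efna5* and *Efnb2*. Without KO F731, *Efnb2* also lay inside, giving 8 of the 10, where 72.1% of tested genes did.

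**Figure D2:**
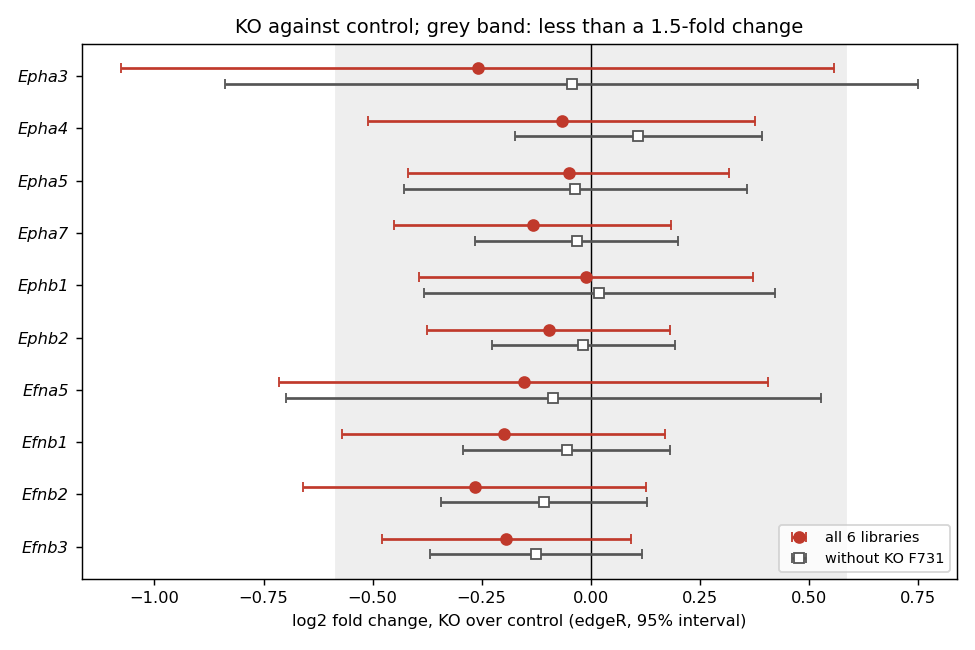
Log2 fold change of KO over control (horizontal axis) with 95% intervals for each gene, from all 6 libraries (red circles) and without KO F731 (open squares). Every interval spans 0, and the grey band marks changes of less than 1.5-fold, which holds 7 of the 10 intervals from all 6 libraries and 8 of the 10 without KO F731.

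Spread between embryos varied from gene to gene. The coefficient of variation in KO had a median of 16.97% over the 10 genes, against 16.98% over all tested genes. In control the medians were 10.9% over the 10 genes and 8.73% over all tested genes. *Ephb1* varied by 4.36% in KO and by 23.5% in control, the widest control spread after that of *Epha3*. *Efna5* had the reverse order, with its wide spread in KO. With 3 embryos a group, these differences in spread were not tested.

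Levels of different genes were compared per kilobase of exon (RPKM), with CPM divided by the union of exons in GENCODE. The ephrin-B ligands led. In KO, *Efnb1* had a mean level of 61.3 RPKM, *Efnb3* 37.5, *Efnb2* 32.6, *Epha4* 24.98, *Epha5* 10.7, *Ephb1* 9.85, *Ephb2* 9.01, *Epha3* 7.52, *Efna5* 3.82 and *Epha7* 3.87 RPKM. In control, the mean levels in the same order of genes were 70.4, 42.9, 39.3, 26.2, 11.1, 9.93, 9.65, 9.02, 4.27 and 4.25 RPKM, so that only the last pair, *Efna5* and *Epha7*, changed places. Neighbours in the control order were apart in all 3 control libraries at 4 steps, from *Efnb1* to *Efnb3*, from *Efnb2* to *Epha4*, from *Epha4* to *Epha5* and from *Epha3* to *Efna5*. By the union of exons, control libraries overlapped between *Efnb3* and *Efnb2*, within the group of *Epha5*, *Ephb1*, *Ephb2* and *Epha3*, and between *Efna5* and *Epha7*. The choice of exon length moved some levels by more than the embryos did. With exons of curated RefSeq transcripts, the control level of *Epha5* was 23.8 RPKM and that of *Efnb2* 56.2 RPKM, which put *Efnb2* above *Efnb3*. With these exons *Epha7* was above *Efna5* in KO (4.79 against 2.93 RPKM) and in control (5.26 against 3.27 RPKM), so this pair did not change places. Control libraries then no longer overlapped between *Efnb2* and *Efnb3*, between *Epha5* and *Ephb1* or between *Epha7* and *Efna5*.

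**Figure D3:**
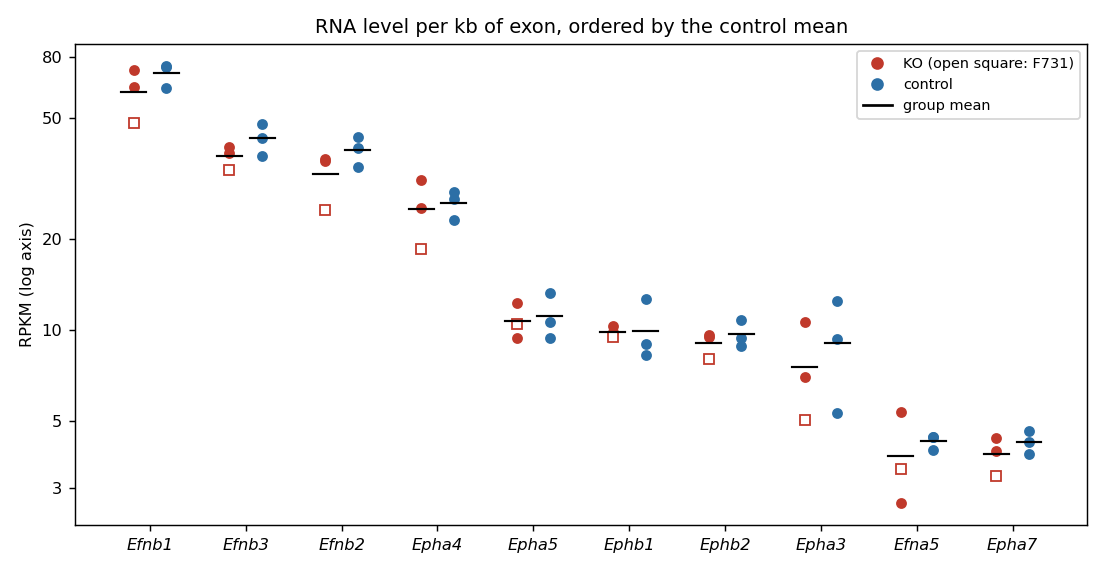
RPKM on a log axis for each gene, in KO (red, left) and control (blue, right), with 1 point per embryo, the group mean as a line and KO F731 as an open square. Genes are ordered by the control mean, which runs from 70.4 RPKM for *Efnb1* to 4.25 RPKM for *Epha7*.

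Summed by class, EphA receptors came to 58.4, 45.6 and 37.2 RPKM in KO, against 42.0, 57.3 and 52.2 RPKM in control. *Epha4* made up 52.8% ± 2.99 of this sum in KO and 52.2% ± 4.39 in control (SD, n = 3 each), or 44.5% in KO and 44.1% in control with RefSeq exons. The EphB pair came to 19.8, 19.4 and 17.4 RPKM in KO and 17.8, 17.6 and 23.3 RPKM in control, shared about equally by *Ephb1* (52.3% ± 1.84 in KO, 50.4% ± 3.62 in control) and *Ephb2*. With RefSeq exons *Ephb1* held 58.8% in KO and 56.9% in control. The ranges of both receptor sums overlapped between the groups. The ephrin-B ligands came to 139.8, 147 and 107 RPKM in KO, against 151, 161 and 145 RPKM in control. KO F728 was above control F725, and the other KO libraries were below all controls. Within the ephrin-B sum, *Efnb1* held 46.5% ± 2.16 in KO and 46.1% ± 2.74 in control, *Efnb2* 24.7% ± 1.30 in KO and 25.7% ± 1.66 in control, and *Efnb3* 28.8% ± 2.76 in KO and 28.2% ± 4.22 in control. The mix of the 3 ligands thus differed between the groups by less than its spread between embryos.

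The 12 remaining Eph and ephrin genes that passed the low-count filter gave no call either (edgeR, 0 of 12 at an adjusted and 0 of 12 at an unadjusted *P*-value of 0.05). Among all tested genes, 0% passed the adjusted and 1.92% the unadjusted threshold. Of the 12 log2 fold changes, 8 were above 0 and 4 below, with a median of 0.10 and a range of -0.23 to 1.67. Without KO F731 5 were above and 7 below, with a median of -0.062. In both settings 50.8% of tested genes were below 0. The smallest *P*-value of the 12 was that of *Epha10*, a receptor without kinase activity, with 18, 24 and 44 counts in KO and 12, 20 and 11 counts in control. In CPM every KO library was above every control for *Epha10*, where this held for 3.86% of tested genes. Its log2 fold change was 1.67 with KO F731 (SE 0.75, edgeR adjusted *P* = 0.86) and 0.43 without it. KO F731 was also the library with reads in the most genes, whose part in the *Epha10* value was not tested. *Epha2*, a receptor better known from epithelia, had a log2 fold change of 0.42 with a standard error of 0.24 (edgeR adjusted *P* = 0.86), and 0.26 without KO F731. *Efna3*, another ephrin-A ligand, averaged 16.6 ± 2.31 CPM in KO and 19.6 ± 1.36 CPM in control (SD, n = 3 each), with a log2 fold change of -0.23 that was -0.13 without KO F731.

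Of 60 listed genes that carry or end Eph and ephrin signals, 59 passed the low-count filter. By edgeR, 0 passed the adjusted threshold and 0 an unadjusted *P*-value of 0.05, where 0% and 1.92% of tested genes did. None was called by DESeq2. Without KO F731, 0 passed the adjusted threshold in edgeR and 1 an unadjusted *P*-value of 0.05, a forward signalling gene lower in KO. In that setting 180 of 15128 tested genes passed as lower. Their log2 fold changes were above 0 for 15 and below for 44, with a median of -0.13, whereas without KO F731 18 were above and 41 below, with a median of -0.031. Here too KO F731 was often the lowest library, for 38 of the 59. Every KO library lay below every control for 5 of the 59, where this held for 3.55% of tested genes, and above for 0 of the 59, where this held for 3.86%. The 5 included the adaptor *Nck2*, the scaffold and exchange factor *Itsn1*, the Rac inhibitor *Chn1* and the receptor phosphatase *Ptprj*.

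Among the 26 forward signalling adaptors and GTPase regulators, 6 were above 0 and 20 below, with a median of -0.15, and without KO F731 9 were above and 17 below, with a median of -0.017. *Nck2* had 53.4, 53.7 and 45.8 CPM in KO, against 61.0, 58.8 and 57.8 CPM in control, a log2 fold change of -0.21 with a standard error of 0.10 (edgeR adjusted *P* = 0.86, unadjusted *P* = 0.075). *Chn1*, which encodes α2-chimaerin and acts below EphA4 in growth cone repulsion, had 104, 105 and 99.4 CPM in KO and 114, 115 and 116 CPM in control. This difference was small but larger than the spread within either group, at a log2 fold change of -0.16 with a standard error of 0.09 (edgeR adjusted *P* = 0.86, unadjusted *P* = 0.10), and -0.13 without KO F731. *Itsn1*, which acts with EphB receptors in dendritic spines, averaged 184 ± 28.4 CPM in KO and 219 ± 13.4 CPM in control (SD, n = 3 each), with a log2 fold change of -0.25 that was -0.13 without KO F731.

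Of 13 kinases, 3 were above 0 and 10 below, with a median of -0.077 that was -0.031 without KO F731. *Fyn*, a Src-family kinase recruited by both receptors and ephrins, averaged 182 ± 20.9 CPM in KO and 204 ± 12.1 CPM in control (SD, n = 3 each), with a log2 fold change of -0.16, or -0.075 without KO F731. *Abl2*, a cytoplasmic kinase of the actin cytoskeleton, had 59.0, 54.1 and 32.8 CPM in KO and 55.2, 59.0 and 59.7 CPM in control, with KO F731 well below the other 5 libraries. Of 9 reverse signalling and PDZ partners, 2 were above 0 and 7 below, with a median of -0.17 that was -0.072 without KO F731. *Pard6b*, a cell polarity protein, had 16.7, 16.0 and 14.3 CPM in KO and 18.1, 16.7 and 19.6 CPM in control, with a log2 fold change of -0.21 (edgeR adjusted *P* = 0.86). *Rgs3*, which links ephrin-B tails to G-protein signalling, averaged 33.7 ± 5.86 CPM in KO and 39.6 ± 1.41 CPM in control (SD, n = 3 each), with a log2 fold change of -0.23 that was -0.10 without KO F731. Of 11 proteases and phosphatases that cleave or dephosphorylate these proteins, 4 were above 0 and 7 below, with a median of -0.081, or -0.035 without KO F731. *Ptprj*, a phosphatase that acts on Eph receptors, had 12.6, 12.2 and 11.9 CPM in KO and 13.3, 14.6 and 13.05 CPM in control, with a log2 fold change of -0.16 (edgeR adjusted *P* = 0.86).

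**Figure D4:**
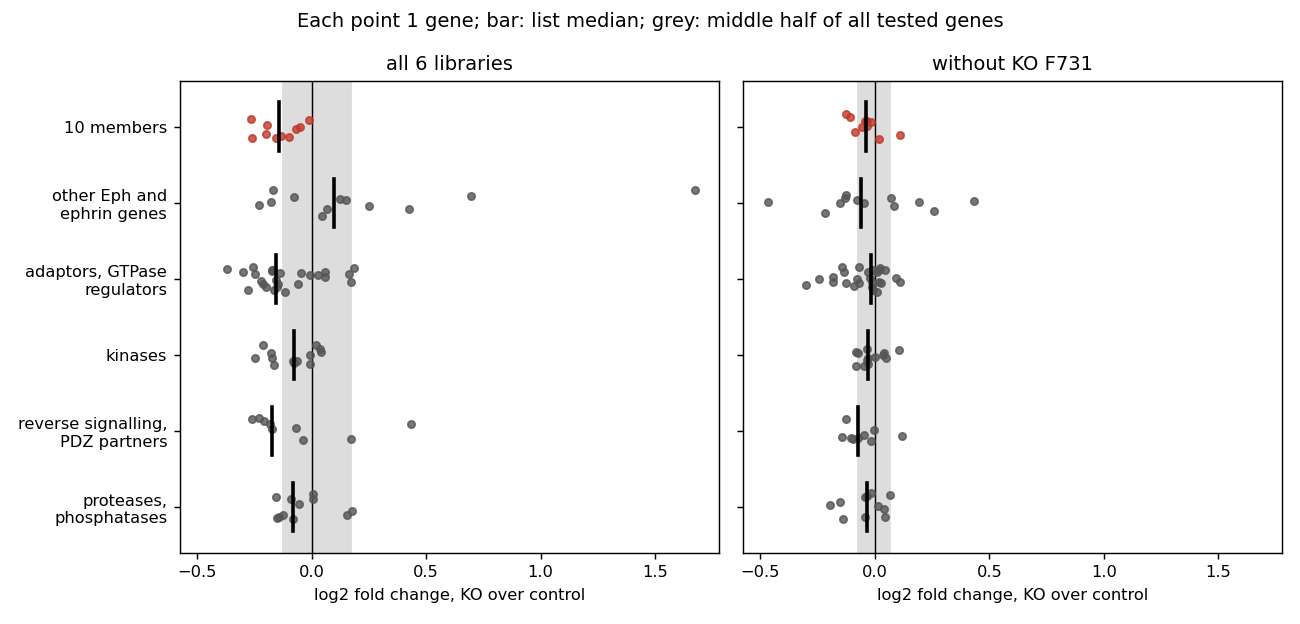
Log2 fold change of KO over control (horizontal axis) for each gene of the 10 members, the 12 other Eph and ephrin genes and the 4 signalling lists, from all 6 libraries (left) and without KO F731 (right). Black bars are list medians and the grey band spans the middle 50% of all tested genes. The median of the members is -0.14 on the left and -0.040 on the right.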

How the data were processed

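The RNA-seq table, as deposited by the authors, holds raw read counts per gene symbol, not normalized. Reads had been trimmed with Trimmomatic, aligned to mm10 with HISAT2 and counted over the UCSC gene annotation of iGenomes. The study tested with DESeq2, and the submitters' processing notes also list Bowtie2, limma and HOMER 4.10 for the series. For the counting program and its strand setting, nothing is given in the sources used here. The 6 forebrain columns were used as unnumbered replicates of their groups, and 18 columns of other samples were not used. ChIP-seq and ATAC-seq data were not analysed here.

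The low-count filter was filterByExpr with a minimum count of 10. The remaining 15027 genes were tested for KO against control in edgeR 4.0.16 (R 4.3.3) with TMM scaling, robust glmQLFit and glmQLFTest. All 10 members passed the filter. *P*-values were adjusted over all of these genes. Standard errors are the size of the log2 fold change over the square root of F, and 95% intervals use the total degrees of freedom of each gene. Errors of means are SD over 3 embryos. The edgeR *P*-values set the difference between groups against a spread between embryos that is estimated with the help of all tested genes. No 2 libraries held the same counts. A two-sided exact permutation test of 3 against 3 cannot go below 0.1. Exons, positions and coding sequences come from GENCODE vM21 on GRCm38, and sequence from the RefSeq copy of that build.

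The members and all gene lists were chosen with earlier results of these data known. Every member was described, together with the 3 other Eph or ephrin genes and 1 to 3 genes of each signalling list with the smallest edgeR *P*-values. The alternatives were DESeq2 1.42.0, limma-voom (limma 3.58.1) with and without sample quality weights, upper-quartile and RLE scaling, a minimum of 1 CPM in 3 libraries or no filter, removal of 213 genes for histones and structural RNAs, unadjusted *P*-values, other exon lengths and leaving out each library in turn, in 21 fits across genes. The tests were tried on simulated counts. Levels by curated RefSeq exons and intervals without KO F731 were added after the data had been seen. Some results are not reported here.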

Additional observations from a re-analysis of the deposited data

How the results depend on the processing

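No member, and none of the other Eph, ephrin and signalling genes, was called at an adjusted *P*-value of 0.05 by edgeR, DESeq2 or limma-voom under any alternative run, and the smallest adjusted *P*-value of a member was 0.57. The number of genes called among all tested was 0 in edgeR, 24 with DESeq2, 12 by limma-voom with sample quality weights, 1 with no low-count filter, 289 at an unadjusted *P*-value of 0.05 and 154 when a 1.5-fold change was also required. With each library left out in turn it was 0 in edgeR and ran from 8 (without control F724) to 51 (without KO F728) in DESeq2. Of 200 member values under alternatives, 17 changed sign, 14 of them with a library left out, and none of these was a call. Each library was left out in edgeR and again in DESeq2, and the same genes changed sign in both, so the 14 are not separate events. *Ephb1*, nearest to 0, changed sign with limma-voom (0.021), upper-quartile scaling (0.017) and the filter at 1 CPM in 3 libraries (0.0083). With 1 library left out, by edgeR or DESeq2, the log2 fold change ran from -0.59 to 0.047 for *Epha3*, -0.26 to 0.11 for *Epha4*, -0.16 to 0.10 for *Epha5*, -0.13 to 0.19 for *Ephb1* and -0.49 to 0.059 for *Efna5*, and stayed below 0 for *Epha7*, *Ephb2*, *Efnb1*, *Efnb2* and *Efnb3*. Without the low-count filter the median of the members was -0.18 and that of all genes 0.13. Control levels of *Epha3*, *Epha5* and *Ephb1* were 1.5 times or more higher with the longest transcript (13.8, 25.3 and 14.9 RPKM) than with the union of exons, because the length divided by is shorter.

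No paired analysis was possible because neither the column names nor the sample titles say which KO embryo belongs with which control. The columns are named by animal number, which no label ties to a replicate number. With 3 embryos a group, the 95% intervals reach past a 1.5-fold change for *Epha3* and *Efna5* with or without KO F731. Counts per gene do not separate isoforms, cell types or regions of the forebrain, and protein was not measured.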
